A study of Bos taurus with 24 samples.

Results

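Cytosolic ribosomal proteins are the protein components of the ribosome in the cytoplasm, and the genes that encode them were taken here as every row of the deposited count table whose gene symbol is RPL or RPS with a number, or is RPLP0, RPLP1, RPLP2 or RPSA. The kinases named RPS6K were not taken. This gave 87 of the 11937 rows, under 78 symbols. Of the 77 symbols of the standard set of ribosomal proteins, 72 were listed, and RPS6, RPS21, RPS27, RPL36 and RPL41 were not. Of 9 paralogs, close relatives of a standard protein encoded by another gene, 6 were listed, and RPL3L, RPL10L and RPL39L were not. By role, 47 rows belong to the large subunit, 30 to the small subunit, 3 to the stalk of the large subunit and 7 to paralogs. Their genes lie on 27 chromosomes, 9 of them on chromosome 18 and 4 on the X chromosome. All 87 are annotated as protein coding, and none had fewer than 19 counts in any library. Ranked by mean count, 67 of the 87 were among the 596 rows that make up the top 5% of the table.

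A ribosome holds each of its proteins in fixed proportion, and cells make their messenger RNAs in large amounts when they grow and divide. Most of these messenger RNAs start with a run of pyrimidines, the TOP motif, through which the kinase complex mTORC1 controls their translation together with that of elongation factors and a few other proteins. A few members are known for duties outside the ribosome: RPL5 and RPL11 bind MDM2, the inhibitor of p53, and RPS27A is made as a fusion with ubiquitin. In muscle, satellite cells are the stem cells that divide, leave the cell cycle and fuse into fibres, and the making of ribosomes changes along that path.

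The cells were bovine muscle satellite cells of wild type genotype (WT) from the musculus longissimus dorsi, grown either by themselves (monoculture) or with fibroblasts in plates whose compartments are joined by 0.4 µm pores (coculture). Satellite cells of 3 lines, at passage 3, were mixed in every group, so the lines cannot be separated, and the fibroblasts were at passage 10. Cells were seeded at 8000 per cm2 in medium with 20% fetal bovine serum, and after 5 days this was replaced by medium with 10% horse serum to start differentiation. RNA was sequenced from 6 groups of 4 libraries: each culture in proliferation, and at 24 h and 72 h in horse serum. Whether an empty insert was used in monoculture is not in the labels, and nor is whether replicates were separate cultures, so the p-values measure only the spread between these libraries, which may be technical.

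Library totals ran from 11.5 to 34.96 M counts, and both extremes were coculture libraries in proliferation (replicates 3 and 2). The lane in the library name was 6 for 18 libraries and 7 for 6, namely replicates 3 and 4 of coculture at 24 h and all 4 of coculture at 72 h, so lane and group cannot be told apart at 72 h. The library names of lane 6 and lane 7 also differ in a library code and a set number, each with 1 value per lane, so the lane cannot be told apart from whatever those codes stand for, and "lane" below means all of them together. A separate label code was 1 for the monoculture libraries at 24 h and 72 h and 2 for all other libraries. What it stands for is unknown here, and it cannot be told apart from culture at 24 h and 72 h. Within monoculture it cannot be told apart from the step from proliferation to 24 h. In proliferation, the share of counts on nuclear ribosomal RNA was 1.23 to 1.40% in the monoculture libraries and 0.742 to 1.07% in the coculture libraries, and 4 later libraries exceeded 1.5%. Of 10 muscle cell markers only DES and ITGA7 were listed. PAX7, MYF5, MYOD1, MYOG, MYF6, CDH15, CHRNA1 and MYMK were not in the table, in which no row has fewer than 6 counts in a library. The summed level of DES and ITGA7 in CPM, counts scaled to a common library total, was 104 to 109 for monoculture and 149.5 to 164 for coculture in proliferation, 220.4 to 243 and 143 to 169.8 at 24 h, and 288 to 318 and 113 to 142 at 72 h. Of 9 fibroblast markers, 8 were listed in every group, with summed levels of 33849 to 36482 and 41026 to 42483 CPM in proliferation, 61998 to 69099 and 60122 to 67827 at 24 h, and 88292 to 99301 and 84410.4 to 86339 at 72 h. The median log2 fold change of these 8 fibroblast rows, coculture over monoculture, was -0.11 in proliferation, 0.16 at 24 h and 0.15 at 72 h. In proliferation and at 72 h its sign was opposite to the difference of the sums, which follow the rows with the most counts. Of 5 markers each, 1 was listed for endothelium (14.4 to 46.5 CPM over all libraries), 1 for leukocytes (0.49 to 2.17 CPM) and 2 for adipocytes (7.11 to 28.0 CPM). What part other cell types had in the results below was not tested.

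Ribosomal protein rows took the largest share of counts in proliferation and a smaller one after the change of medium, in both cultures. In monoculture they held 4.71% ± 0.141 of counts in proliferation (SD, n = 4), 3.32% ± 0.245 at 24 h and 3.31% ± 0.292 at 72 h. The coculture shares were 4.80% ± 0.220, 3.71% ± 0.218 and 3.65% ± 0.089. No library of a later time reached the lowest share in proliferation, 4.56%, since the highest later share was 3.89%. At 24 h and at 72 h the ranges of the cultures overlapped, 2.97 to 3.54% against 3.42 to 3.89% at 24 h and 2.93 to 3.56% against 3.53 to 3.72% at 72 h. In bulk RNA of this kind, fewer cells of a type and less RNA per cell cannot be told apart.

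**Figure D1:**
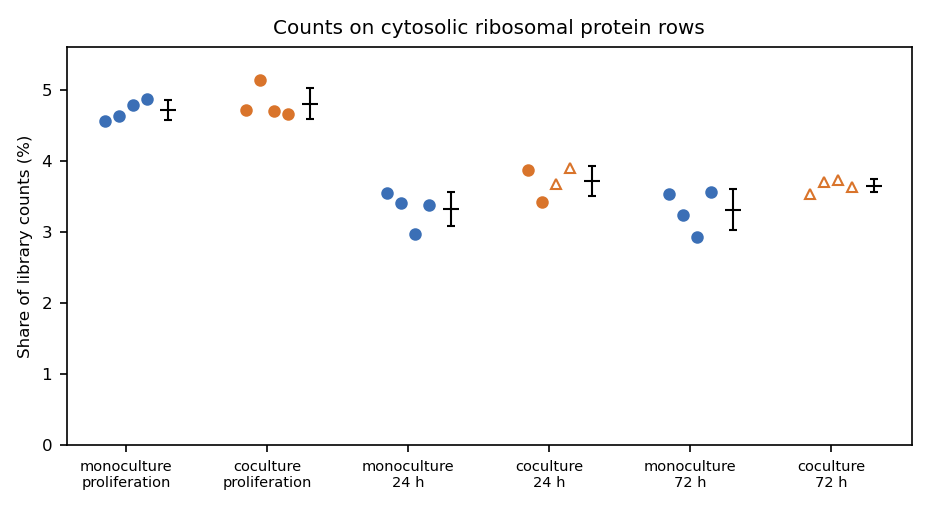
Share of each library's counts on the 87 ribosomal protein rows (y axis, %), for 6 groups of 4 libraries. Filled circles are lane 6 libraries, open triangles lane 7, blue is monoculture, orange is coculture, and the black bar is the mean with its SD. The lowest library in proliferation (4.56%) lies above the highest later one (3.89%).

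In proliferation, ribosomal protein genes were found on both sides of the comparison between the cultures, as were the rows of the table as a whole. Of 87 members, 39 were higher in coculture, where 30.3% of all rows were, and 19 were lower, where 28.7% of all rows were. As shares of the members these are 44.8% higher, above the share of the table, and 21.8% lower, below it. The members' median log2 fold change was 0.11, against 0.004 over all rows, and no member changed by more than 1.5-fold. The 4 libraries of coculture all lay above the 4 of monoculture for 33 members (27.1% of all rows) and all below for 13 (25.9%). By role, 19 of 30 small subunit rows rose and 6 fell, 17 of 47 large subunit rows rose and 10 fell, all 3 stalk rows rose, and of 7 paralog rows none rose and 3 fell. Levels below are CPM after scaling with edgeR's TMM factors, fold changes are log2 of coculture over monoculture from edgeR's quasi-likelihood fit, and a member is called at an adjusted p under 0.05. In comparisons between the cultures, a rise or a fall means a higher or a lower level in coculture, not a change over time.

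RPS28, a small protein of the 40S head, had 267, 265, 263 and 244 CPM in monoculture in proliferation and 355, 392, 349 and 342 CPM in coculture, replicates 1 to 4. Every coculture library was above every monoculture library, and replicate 4 of monoculture was the lowest. The log2 change was 0.47 ± 0.048 (SE, edgeR adjusted p = 2.5e-09), the largest rise of any member in proliferation. RPL28 of the large subunit stood at 328, 315, 353 and 367 CPM against 451, 486, 445 and 424 CPM, and the lowest coculture library exceeded the highest monoculture one. Its log2 change was 0.41 ± 0.050 (SE, edgeR adjusted p = 5.3e-08).

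The stalk is the lateral arm of the large subunit on which RPLP0 anchors RPLP1 and RPLP2 and to which translation factors bind. RPLP2 had 235, 240.3, 260.2 and 254 CPM in monoculture in proliferation and 329, 372, 328 and 316 CPM in coculture. The ranges were apart, and the log2 change was 0.44 ± 0.052 (SE, edgeR adjusted p = 2.3e-08). For RPLP0 the means were 1690.3 ± 58.6 and 2102 ± 89.0 CPM (SD, n = 4), with a log2 change of 0.31 ± 0.046 (SE, edgeR adjusted p = 1.2e-06). RPLP1 overlapped between the cultures, with a log2 change of 0.15 ± 0.064 (SE, edgeR adjusted p = 0.039). RPSA, a small subunit protein also known as a precursor of the laminin receptor, rose by a log2 of 0.30 ± 0.042 (SE, edgeR adjusted p = 4.7e-07) and was higher in all 4 coculture libraries.

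Among the members lower in coculture, the paralogs RPL22L1 and RPS27L had the largest changes. RPL22L1, the paralog of the large subunit protein RPL22, had 155, 167, 151 and 153 CPM in monoculture and 107, 115, 116 and 107 CPM in coculture. The highest coculture library was well under the lowest monoculture one, and the log2 change was -0.49 ± 0.050 (SE, edgeR adjusted p = 1.8e-09). RPL22 itself gave 144, 169, 156 and 176 CPM against 123, 141, 121 and 131 CPM, with every coculture library below every monoculture one. Its log2 change was -0.32 ± 0.067 (SE, edgeR adjusted p = 0.00017). RPS27L, a paralog of RPS27 known as a target of p53, has a row on chromosome 10 (46888851 to 46892617) and another on chromosome 3 that spans 539 bases. The chromosome 10 row had 49.6, 51.1, 49.6 and 51.4 CPM in monoculture and 36.7, 40.7, 37.5 and 32.7 CPM in coculture, without overlap. Both rows fell, by log2 fold changes of -0.44 ± 0.060 (SE, edgeR adjusted p = 3.1e-07) on chromosome 10 and -0.49 ± 0.059 (SE, edgeR adjusted p = 4.6e-08) on chromosome 3. Rows that share a symbol are uncertain where the counting could split reads between them, and whether reads were shared was not tested.

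**Figure D2:**
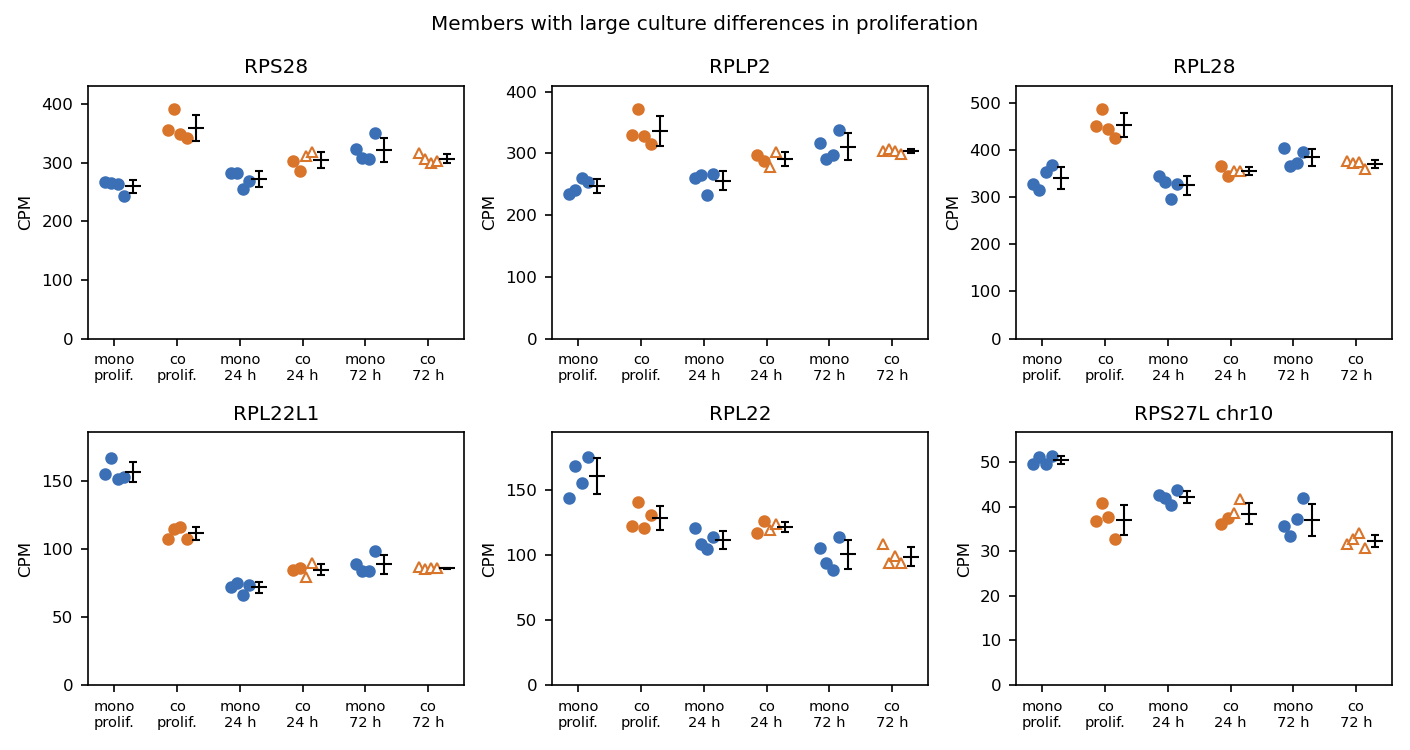
Level of 6 members in each library (y axis, CPM), by culture and time. Filled circles are lane 6 libraries, open triangles lane 7, blue is monoculture, orange is coculture, and the black bar is the mean with its SD over 4 libraries. RPS28, RPLP2 and RPL28 are higher in coculture in proliferation, RPL22L1, RPL22 and the RPS27L row on chromosome 10 are lower, and RPL22L1 is higher in coculture at 24 h.

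Members with duties outside the ribosome fell on both sides in proliferation. RPL5, which joins RPL11 and 5S ribosomal RNA in a particle that binds MDM2, was lower in coculture, with a log2 change of -0.19 ± 0.051 (SE, edgeR adjusted p = 0.0023). RPL11 was higher by 0.14 ± 0.049 (SE, edgeR adjusted p = 0.016). RPL3, at the catalytic centre of the large subunit, was higher by 0.21 ± 0.041 (SE, edgeR adjusted p = 4.6e-05), and the ubiquitin fusion RPS27A was lower, at -0.12 ± 0.050 (SE, edgeR adjusted p = 0.045). RPS4X, encoded on the X chromosome in cattle, was lower, at -0.15 ± 0.051 (SE, edgeR adjusted p = 0.013), and RPL36A, also on the X chromosome, was lower, at -0.24 ± 0.062 (SE, edgeR adjusted p = 0.0016). The paralogs RPL36AL, RPL7L1 and RPL26L1 did not pass the test, with log2 fold changes of -0.036 ± 0.059 (SE), -0.0094 ± 0.062 (SE) and 0.24 ± 0.11 (SE).

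Of the 11 chromosomes with at least 4 members, the median log2 fold change of the members in proliferation had the same sign as that of the other rows on 8. On chromosome 18, 8 of 9 members were higher in coculture in proliferation, with a median log2 fold change of 0.28, and of the other 693 rows of that chromosome 41.6% were higher, with a median of 0.15. All 5 members on chromosome 7 were higher, with a median of 0.30, beside 46.0% of the other 667 rows and a median of 0.15. On the X chromosome 1 of 4 members was higher and 3 were lower, beside 22.7% and 35.3% of its other 374 rows. On chromosome 19 the directions differed, with a median of -0.058 over 7 members (3 higher and 1 lower), while 44.3% of the other 725 rows were higher and their median was 0.15. On chromosome 10, 2 of 6 members were higher and 1 lower, where 14.8% of the other 541 rows were higher and 38.3% lower. The chromosomes named were picked after the values were seen.

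The share of higher members in proliferation came close to that of the whole table under 2 other settings. Where scaling used library sizes alone, 21 members were higher (24.1%, against 22.4% of all rows) and 25 lower (28.7%, against 34.3%), the members' median was 0.039, and the median of all rows stood at -0.065. Leaving out coculture replicates 2 and 3, the deepest and the shallowest library, left 21 members called higher (24.1%, against 24.9% of all rows) and 20 lower (23%, against 23.4%), with a median of 0.048.

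At 24 h of differentiation the members that differed were all higher in coculture. There 46 members were higher, where 11.5% of all rows were, and none was lower, where 12.2% of all rows were. At an unadjusted p under 0.05 edgeR found 1 member lower, and DESeq2 called 47 higher and 0 lower. The median log2 fold change was 0.14, with the middle 50% of members between 0.11 and 0.20, against -0.0027 over all rows. All 4 coculture libraries were above all 4 of monoculture for 38 members (12.1% of all rows), and for 0 members were they all below (12.3%). The count by role was 26 of 47 for the large subunit, 17 of 30 for the small subunit, 2 of 3 for the stalk and 1 of 7 for paralogs.

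RPS23, a protein of the decoding centre, had 558, 501, 425 and 508 CPM in monoculture at 24 h and 617, 591, 623 and 633 CPM in coculture. The coculture libraries were close together and all higher, while replicate 3 of monoculture was low. The log2 change was 0.31 ± 0.076 (SE, edgeR adjusted p = 0.0034). RPL13, of the large subunit, had 677, 686, 662 and 666 CPM and 752, 808, 772 and 882 CPM, with a log2 change of 0.26 ± 0.060 (SE, edgeR adjusted p = 0.0021). The RPL17 row on chromosome 24 had 462, 411, 369 and 445 CPM in monoculture and 526, 508, 482 and 509.8 CPM in coculture, without overlap, and a log2 change of 0.26 ± 0.061 (SE, edgeR adjusted p = 0.0016). RPL34 was higher in coculture by 0.26 ± 0.065 (SE, edgeR adjusted p = 0.0039).

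RPL22L1, lower in coculture in proliferation, was higher at 24 h, with 72.3, 75.1, 65.7 and 73.6 CPM in monoculture and 84.6, 85.6, 79.5 and 89.4 CPM in coculture. The ranges were apart, and the log2 change was 0.24 ± 0.051 (SE, edgeR adjusted p = 0.00069). RPL5 and RPS4X were also higher in coculture at 24 h, by 0.16 ± 0.051 (SE, edgeR adjusted p = 0.023) and 0.20 ± 0.051 (SE, edgeR adjusted p = 0.0037). RPLP0, RPLP2, RPSA and RPL3 were higher in coculture in proliferation and at 24 h, with 24 h log2 fold changes of 0.20, 0.19, 0.22 and 0.22 (edgeR adjusted p = 0.0017, 0.0079, 0.00023 and 0.00017). RPLP1, RPL11, RPS27A, RPL22, RPL36A and both RPS27L rows did not pass the test, with log2 fold changes from -0.13 (RPS27L, chromosome 10) to 0.13 (RPL36A). Of the 39 members higher in proliferation, 27 were higher at 24 h too, and of the 19 that were lower, 7 were higher at 24 h. Of all 87 members, 52.9% were higher at 24 h, and the matching shares of all rows are not given here.

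Replicate 3 of monoculture at 24 h had the lowest members, with a median log2 deviation from the mean of all libraries of -0.31, where the other 3 libraries had -0.078, -0.17 and -0.18. Without it, 25 members were higher at 24 h (28.7%, against 10% of all rows). With lane 6 libraries alone, which leaves coculture replicates 1 and 2, 17 members were higher (19.5%, against 6.74% of all rows) and 0 lower.

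The change of the culture difference from proliferation to 24 h was tested itself, and 29 members moved up (24.3% of all rows) and 7 moved down (26.2%). All 19 members that were lower in coculture in proliferation are among the 29, a count that shares the proliferation libraries with the first comparison. RPL22L1 changed by a log2 of 0.73 ± 0.071 (SE, edgeR adjusted p = 3.5e-09), the only member past 1.5-fold. RPL35A and RPL22 changed by 0.46 ± 0.097 (SE, edgeR adjusted p = 0.00026) and 0.44 ± 0.095 (SE, edgeR adjusted p = 0.00034). Without monoculture replicate 3 at 24 h, 13 members moved down (24.8% of all rows), and with library sizes alone 31 moved up (27.8% of all rows) and 3 down (19.5%). Among the members that moved down, RPS28 and RPL28 changed by -0.31 and -0.28 (edgeR adjusted p = 0.00042 and 0.0015).

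**Figure D3:**
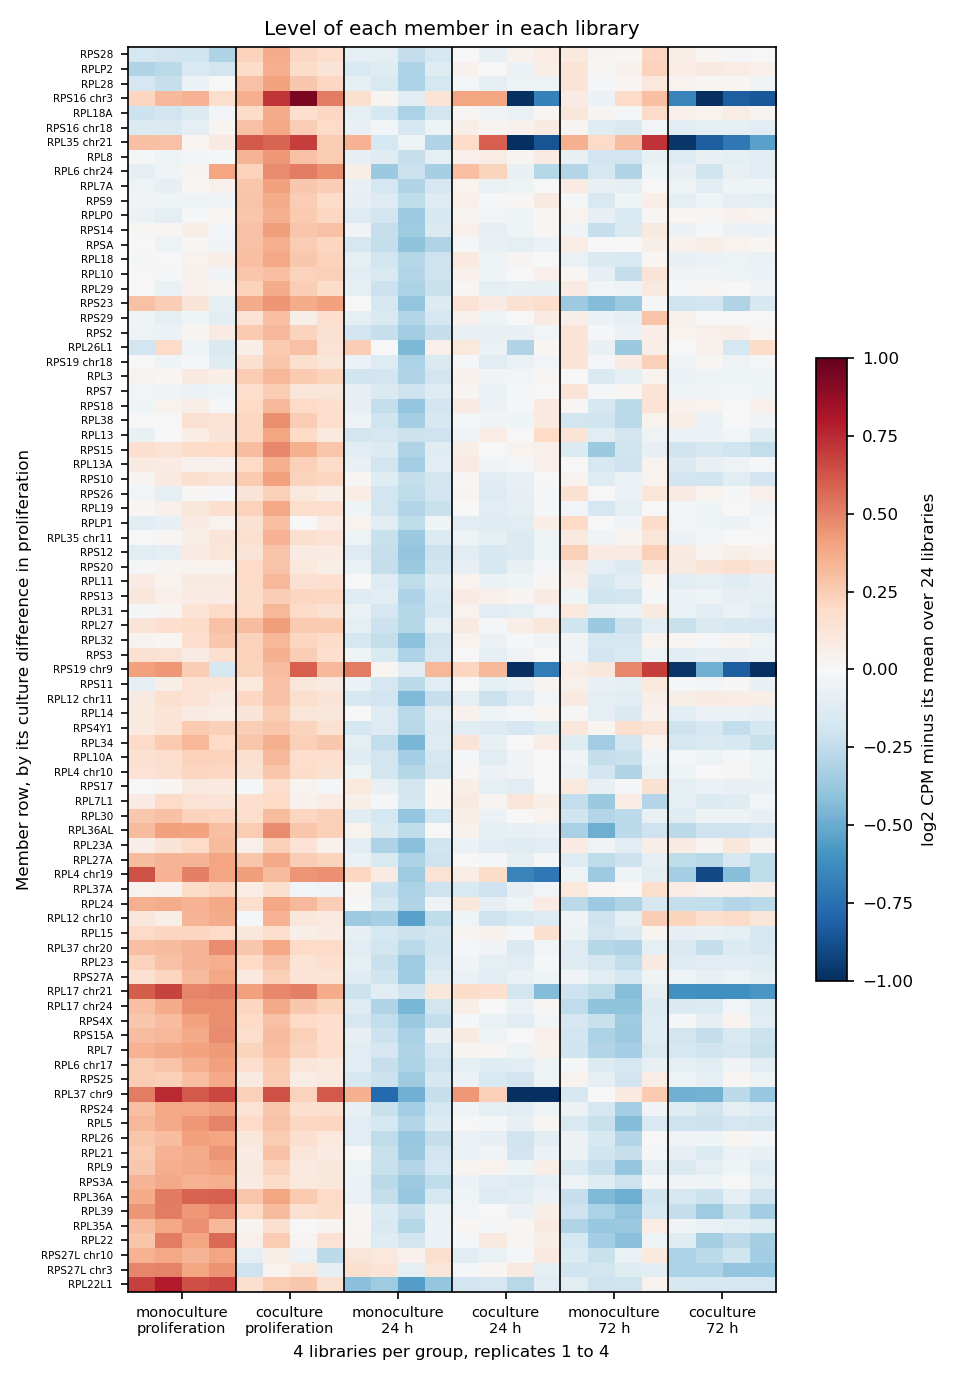
Level of 85 of the 87 member rows (y axis, ordered by the culture difference in proliferation on the log2 scale, highest at the top) in each of the 24 libraries (x axis, replicates 1 to 4 of each group), as log2 CPM minus the row's mean over all libraries. Red is above and blue is below that mean, with the scale ending at -1 and 1. The top of the plot is red in coculture in proliferation and the bottom in monoculture, and 6 isolated rows that turn bluer than their neighbours in coculture replicates 3 and 4 at 24 h are second rows of RPS16, RPL35, RPS19, RPL4, RPL17 and RPL37.

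At 72 h few members differed between the cultures. Of 87, 6 were higher in coculture (25.1% of all rows) and 10 were lower (25.4% of all rows), so both shares were under those of the whole table. The median log2 fold change was -0.0021, against -0.0014 over all rows. All 4 coculture libraries were above all 4 of monoculture for 2 members (21.1% of all rows) and below for 8 (20.8%). Of the higher ones, RPS4X had 550.4, 528, 482 and 563 CPM in monoculture and 608, 582, 632 and 572 CPM in coculture, with every coculture library above every monoculture library. Its log2 change was 0.17 ± 0.051 (SE, edgeR adjusted p = 0.0055). The RPL17 row on chromosome 24, the RPL12 row on chromosome 10 (the lower of its 2 rows) and RPL36A rose by 0.19, 0.19 and 0.16 (edgeR adjusted p = 0.0098, 0.046 and 0.032). RPL4 on chromosome 10 and RPL30 were the other two. Among the lower ones were both RPS27L rows, with log2 fold changes of -0.20 ± 0.063 (SE, edgeR adjusted p = 0.01) on chromosome 10 and -0.20 ± 0.064 (SE, edgeR adjusted p = 0.012) on chromosome 3. RPLP0, RPLP1, RPLP2, RPSA, RPL3, RPL5, RPL11, RPS27A, RPL22, RPL22L1, RPL36AL, RPL7L1 and RPL26L1 did not pass the test, with log2 fold changes from -0.13 (RPLP1) to 0.11 (RPL36AL).

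The count of members higher at 72 h hung on single libraries. It was 2 without monoculture replicate 2 or coculture replicate 3, 3 without monoculture replicate 3 or coculture replicate 2, and 14 without monoculture replicate 4, which also took the lower count to 6. With library sizes alone for scaling it was 39, or 44.8%, against 39.6% of all rows, while the median of all rows moved to 0.13, as did that of the members. For the single libraries left out, the shares of all rows are not given here.

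The largest falls at 72 h were in second rows of a symbol that has a much higher row elsewhere. Of the 9 symbols with 2 rows (RPL4, RPL6, RPL12, RPL17, RPL35, RPL37, RPS16, RPS19 and RPS27L), the lower row spans under 2000 bases in 8. The RPL35 row on chromosome 21 (13957371 to 13957857, 487 bases) had 6.72, 5.98, 6.50 and 8.65 CPM in monoculture and 2.67, 2.96, 3.20 and 3.60 CPM in coculture at 72 h. The ranges were far apart, and the log2 change was -1.14 ± 0.23 (SE, edgeR adjusted p = 0.00015). The RPL35 row on chromosome 11 (95842869 to 95854606), with means of 492 ± 24.0 and 468 ± 8.04 CPM, had -0.075 ± 0.053 (SE, edgeR adjusted p = 0.25). The RPS19 row on chromosome 9 had 4.79, 4.91, 6.31 and 7.32 CPM and 2.31, 3.25, 2.56 and 2.28 CPM, and a log2 change of -1.15 ± 0.23 (SE, edgeR adjusted p = 9.9e-05), while the RPS19 row on chromosome 18 had -0.13 ± 0.050 (SE, edgeR adjusted p = 0.033). The second rows of RPS16 on chromosome 3 and of RPL17 on chromosome 21 fell, at -0.97 ± 0.21 (SE, edgeR adjusted p = 0.00032) and -0.36 ± 0.099 (SE, edgeR adjusted p = 0.0029), where the RPS16 row on chromosome 18 had -0.037 ± 0.046 (SE). Coordinates are those of the deposited annotation, and its genome build is unknown here.

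These second rows moved with the lane in the library name inside a single group. In coculture at 24 h, the RPL35 row on chromosome 21 had 5.98, 7.95, 2.41 and 2.88 CPM, replicates 1 to 4. The first pair of libraries came from lane 6 and the second pair, much lower, from lane 7. As a percentage of the chromosome 11 row, its counts were 1.31, 1.78, 0.555 and 0.628, and at 72 h in coculture, all from lane 7, 0.584, 0.634, 0.677 and 0.76. In the 4 other groups, all from lane 6, that percentage ran from 0.988 to 1.67. The RPS16 row on chromosome 3 had 1.26, 1.29, 0.479 and 0.59 percent of the chromosome 18 row in coculture at 24 h, and the RPS19 row on chromosome 9 had 0.788, 0.913, 0.336 and 0.42 percent of its chromosome 18 row, with the lane 7 pair again the lower one.

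A lane term was therefore estimated, a test chosen after these values were seen and one that rests on the 4 libraries of coculture at 24 h. Among these, replicate 2 of lane 6 had 4.07% of its counts on nuclear ribosomal RNA, the highest share of any library. Of all 11937 rows, 18 (0.151%) were lower in lane 7 and 0 (0%) higher, with 196 rows higher at an unadjusted p under 0.05. DESeq2 was not run for it. The 18 include 5 of the 87 members, and all 5 are second rows: RPL37 on chromosome 9 at -1.53 ± 0.28 (SE, edgeR adjusted p = 0.0044), RPL35 on chromosome 21 at -1.39 ± 0.22 (SE, edgeR adjusted p = 0.00057), RPS16 on chromosome 3 at -1.22 ± 0.18 (SE, edgeR adjusted p = 0.0003), RPS19 on chromosome 9 at -1.13 ± 0.24 (SE, edgeR adjusted p = 0.046) and RPL17 on chromosome 21 at -0.48 ± 0.097 (SE, edgeR adjusted p = 0.019). All 9 second rows had a value below 0, none of the other 78 members was called, and the median of the members was -0.0056. The second rows of RPS27L on chromosome 3 and RPL12 on chromosome 10 were near 0, at -0.012 ± 0.088 (SE) and -0.016 ± 0.11 (SE). With lane in the model, the log2 fold changes at 72 h were 0.25 for RPL35 on chromosome 21, 0.25 for RPS16 on chromosome 3 and 0.12 for RPL17 on chromosome 21. In that model 2 members were higher at 72 h, RPL37 on chromosome 9 and RPL6 on chromosome 24, both second rows, and 2 were lower, RPS27L on chromosome 10 and RPS4Y1. All coculture libraries at 72 h are from lane 7, so the lane term makes this comparison less precise for every row. The share of all rows called in that model is not given here, so the smaller counts are not particular to the members. Counting 1 row per symbol, the higher one, 5 of 78 were higher and 5 lower at 72 h without the lane term.

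**Figure D4:**
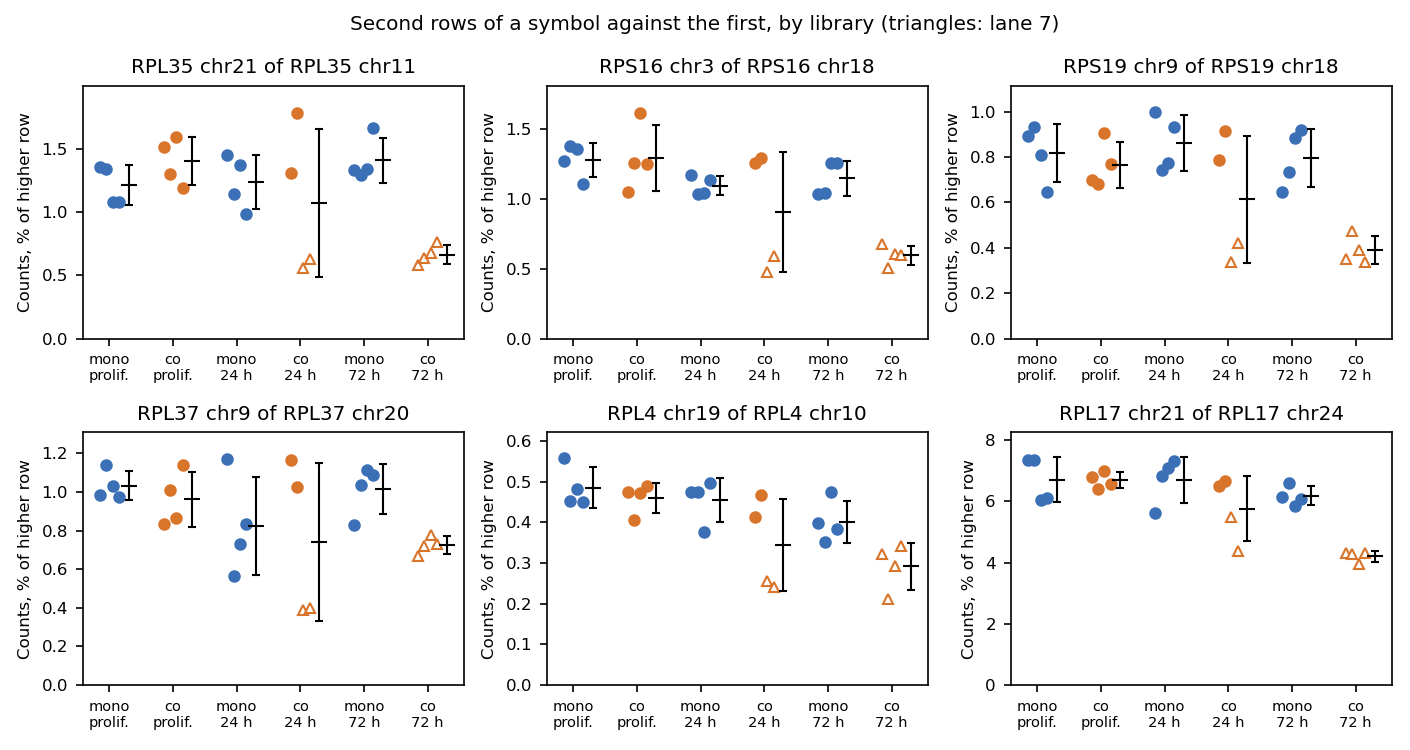
Counts on the second row of 6 symbols as a percentage of the counts on the first row (y axis), by library. Filled circles are lane 6 libraries, open triangles lane 7, blue is monoculture, orange is coculture, and the black bar is the mean with its SD over 4 libraries. In coculture at 24 h the open triangles lie below the filled circles in all 6 panels, and of all 9 symbols with 2 rows this held for 8, RPS27L being the exception.

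From 24 h to 72 h the culture difference itself fell for 30 members (11.7% of all rows) and rose for 0 (12% of all rows, with 0 members also at an unadjusted p under 0.05 and by DESeq2). The median change was -0.15, against 0.0035 over all rows. The largest changes were again in second rows, -1.04 for RPL35 on chromosome 21, -0.81 for RPS16 on chromosome 3 and -0.41 for RPL17 on chromosome 21 (edgeR adjusted p = 0.019, 0.039 and 0.026). Among standard rows RPLP2 changed by -0.22 ± 0.073 (SE, edgeR adjusted p = 0.026) and RPSA by -0.21 ± 0.059 (SE, edgeR adjusted p = 0.0089), and RPL22L1 by -0.29 ± 0.072 (SE, edgeR adjusted p = 0.0038). Of 78 symbols counted by the higher row, 27 fell. With library sizes alone for scaling, 2 members fell (4.16% of all rows), and the members' median was -0.020, against 0.14 over all rows. The count of 30 was 14, 17, 18 and 15 when monoculture 24 h replicate 3, coculture 24 h replicate 1, monoculture 72 h replicate 1 or monoculture 72 h replicate 4 was left out, and 15 with lane in the model, settings in which 9.89 to 11.6% of all rows fell.

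Within each culture, nearly all members fell from proliferation to 24 h. In monoculture 73 of 87 were lower at 24 h (34.2% of all rows) and 0 were higher (34.3%), and in coculture 77 were lower (22.2% of all rows) and 0 higher (21%). In neither culture was a member higher at an unadjusted p under 0.05 or by DESeq2. All 4 libraries at 24 h lay below all 4 in proliferation for 68 members in monoculture (30.1% of all rows) and 69 in coculture (20.2%). With 73 and 77 of 87 lower, most members had to be lower in both cultures, and 65 were. The matching share of all rows is not given here. The medians were -0.27 in monoculture and -0.26 in coculture, against -0.001 and -0.0077 over all rows. With library sizes alone they were -0.46 and -0.38, against -0.19 and -0.13 over all rows, with 83 and 84 members lower (48.9% and 39.5% of all rows). The spread among members was wider in monoculture, where the middle 50% ran from -0.51 to -0.20, against -0.30 to -0.21 in coculture.

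The large subunit had the larger median fall in monoculture, -0.38 with 44 of 47 rows lower, beside -0.23 for the small subunit with 22 of 30 lower. In coculture the medians were -0.26 and -0.24. The stalk rows RPLP1 and RPLP2 did not pass the test in monoculture, at -0.072 ± 0.064 (SE) and 0.051 ± 0.052 (SE), and fell in coculture, at -0.20 ± 0.064 (SE, edgeR adjusted p = 0.011) and -0.21 ± 0.052 (SE, edgeR adjusted p = 0.0017). RPLP0 changed by -0.17 in monoculture and -0.28 in coculture, and RPSA by -0.26 and -0.34, all called lower.

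RPL22L1 had the largest fall in monoculture, from 155, 167, 151 and 153 CPM to 72.3, 75.1, 65.7 and 73.6 CPM, a log2 change of -1.13 ± 0.051 (SE, edgeR adjusted p = 1.1e-17). The ranges were far apart. In coculture it went from 111 ± 4.72 to 84.8 ± 4.06 CPM (SD, n = 4), or -0.39 ± 0.051 (SE, edgeR adjusted p = 2.3e-07). RPL36A, of the large subunit, fell from 279 ± 19.6 to 168 ± 15.2 CPM in monoculture, or -0.73 ± 0.062 (SE, edgeR adjusted p = 1.4e-11), and changed by -0.37 ± 0.062 (SE, edgeR adjusted p = 1.9e-05) in coculture. The second row of RPL37 on chromosome 9 changed by -0.90 ± 0.24 (SE, edgeR adjusted p = 0.0013) in monoculture, where all libraries are from lane 6. In coculture the largest falls were in second rows, -0.75 for RPS16 on chromosome 3, -0.73 for RPL37 on chromosome 9 and -0.68 for RPL35 on chromosome 21 (edgeR adjusted p = 0.0012, 0.014 and 0.0094), and 2 of the 4 libraries at 24 h were from lane 7. RPL5, RPL3, RPS27A, RPS4X and RPL11 fell in both cultures, with log2 fold changes of -0.59, -0.27, -0.47, -0.62 and -0.20 in monoculture and -0.24, -0.27, -0.23, -0.27 and -0.23 in coculture.

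From 24 h to 72 h more members rose in monoculture and more fell in coculture, and the test of that difference is the change of the culture difference given above. In monoculture 36 members rose (27.3% of all rows) and 7 fell (26.6%), with a median of 0.11. In coculture 6 rose (24.4% of all rows) and 26 fell (23.8%), with a median of -0.056. The 4 libraries at 72 h were all above those at 24 h for 20 members in monoculture (21.3% of all rows) and 10 in coculture (23.2%), and all below for 1 (20%) and 29 (23.1%). RPS12, of the small subunit beak, rose in monoculture by 0.40 ± 0.056 (SE, edgeR adjusted p = 4.8e-07), the second row of RPL12, on chromosome 10, by 0.35 ± 0.080 (SE, edgeR adjusted p = 0.00039) and RPSA by 0.31 ± 0.042 (SE, edgeR adjusted p = 2.1e-07). The largest falls in monoculture were in the RPS27L row on chromosome 3 and RPL36AL, at -0.24 ± 0.062 (SE, edgeR adjusted p = 0.0017) and -0.23 ± 0.062 (SE, edgeR adjusted p = 0.0022). In coculture the RPL12 rows on chromosomes 10 (the second row) and 11 and RPS20 rose by 0.31, 0.19 and 0.21 (edgeR adjusted p = 0.0018, 0.0044 and 0.0027). Its largest falls were in second rows, RPS16 on chromosome 3, RPS19 on chromosome 9 and RPL35 on chromosome 21, at -0.74, -0.61 and -0.61, between libraries of both lanes and libraries of lane 7. With lane in the model, RPS19 on chromosome 9 was at 0.044 and RPL35 on chromosome 21 at 0.23. Without monoculture replicate 2 at 72 h, 4 members fell in monoculture, and without replicate 3 at 24 h, 11 did, with the shares of all rows not given here. With library sizes alone for scaling, 9 members rose (15% of all rows) and 21 fell (40.5%) in monoculture, where the median of all rows stood at -0.13.

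**Figure D5:**
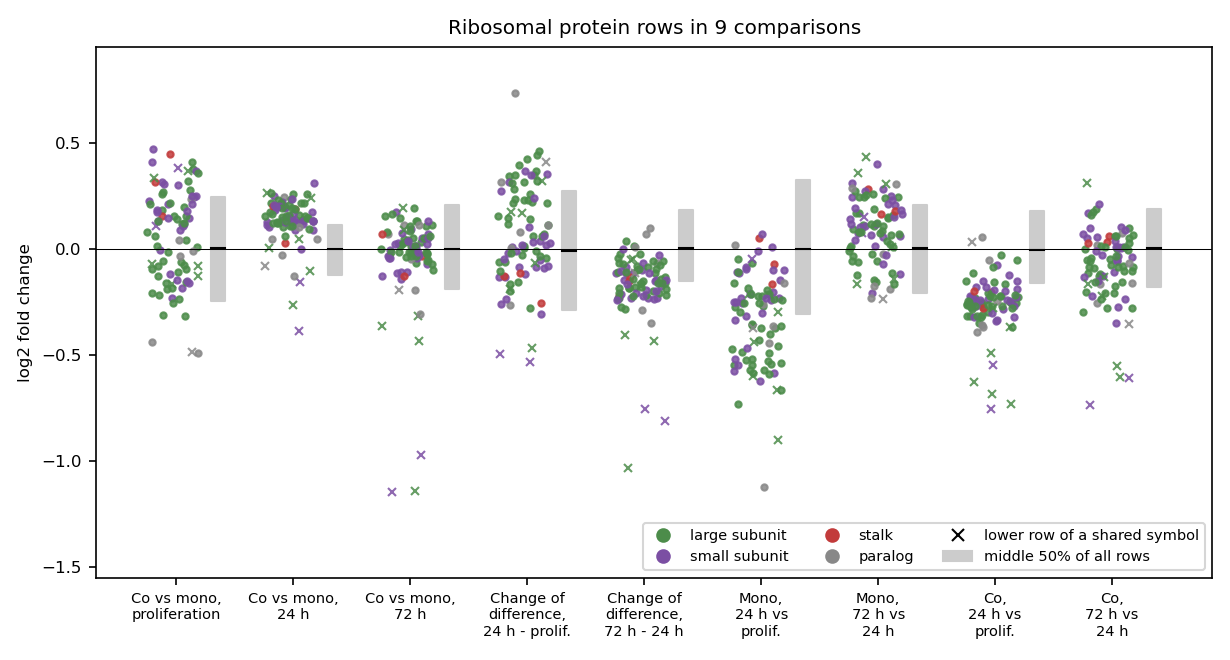
log2 fold change of each member (y axis) in the 9 comparisons (x axis), with 1 point per row coloured by role. Crosses are the lower row of a symbol that has 2, the grey bar is the middle 50% of all 11937 rows and its black line their median. The members lie mostly above 0 at 24 h between cultures and mostly below 0 from proliferation to 24 h in both cultures, and crosses make up the lowest points at 72 h.

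RPL22L1 is known to be able to take the place of RPL22 in the ribosome, and their counts were set against each other in each library. In monoculture, RPL22L1 had 97.5% ± 8.46 of the counts of RPL22 in proliferation (SD, n = 4), 64.0% ± 3.81 at 24 h and 88.5% ± 4.26 at 72 h. In coculture it had 86.6% ± 6.69, 69.6% ± 2.99 and 87.0% ± 5.58. The 24 h values were below those of both other times in every library of each culture. These are ratios of counts, not of molecules, since lengths were not taken into account. For RPS27L, the chromosome 3 row held 59.6 to 78.1% of the counts of the chromosome 10 row over all 24 libraries, with group means from 65.6 to 73.4%.

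The same contrasts were read for other genes of the translation machinery, by counts to be set beside the shares of all rows: 30.3% higher and 28.7% lower in proliferation, 11.5% and 12.2% at 24 h, and 25.1% and 25.4% at 72 h. Of 27 rows of TOP genes outside the ribosomal protein symbols, which include elongation factors, 10 were higher and 11 lower in coculture in proliferation, 14 and 1 at 24 h, and 12 and 5 at 72 h. From proliferation to 24 h, 19 of them fell and 2 rose in monoculture, and 20 fell and 0 rose in coculture. Those that fell are 70.4% and 74.1% of the list, against 34.2% and 22.2% of all rows, and the 14 higher at 24 h are 51.9%. The same falls in the lists below, monoculture first, were 62.5% and 59.4% of initiation factor rows and 44.8% and 58.2% of biogenesis factor rows. For nuclear oxidative phosphorylation they were 41% and 52.6%, and for mTORC1 and its TOP regulators 40.7% and 37%. For RNA polymerase I machinery they were 10.5% and 26.3%, and for the p53 and MDM2 axis 25% and 8.33%. FAU, which encodes the ribosomal protein eS30 as a fusion, was higher in proliferation by 0.43 ± 0.053 (SE, edgeR adjusted p = 6.4e-08), and a NAP1L1 row, a histone chaperone, was lower, at -0.44 ± 0.043 (SE, edgeR adjusted p = 7.6e-10). At 24 h an EEF1G row rose by 0.67 ± 0.22 (SE, edgeR adjusted p = 0.026) and another NAP1L1 row was lower, at -0.30 ± 0.096 (SE, edgeR adjusted p = 0.021), and both symbols have more than 1 row. HNRNPA1, a splicing regulator, was higher at 72 h by 0.46 ± 0.037 (SE, edgeR adjusted p = 1.1e-11), and that NAP1L1 row was lower, at -0.36 ± 0.10 (SE, edgeR adjusted p = 0.0041).

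Ribosome biogenesis factors, which process ribosomal RNA and assemble subunits, had 33 of 67 rows higher and 15 lower in proliferation, 8 and 1 at 24 h, and 10 and 18 at 72 h. The 8 higher at 24 h (11.9%) and the 18 lower at 72 h (26.9%) are close to the shares of all rows, and the 33 higher in proliferation (49.3%) are above. The largest changes were a second row of MPHOSPH10 and NMD3, the export adaptor of the large subunit, in proliferation, at 0.77 ± 0.28 (SE, edgeR adjusted p = 0.019) and -0.51 ± 0.047 (SE, edgeR adjusted p = 3.3e-10). NIP7 rose by 0.43 ± 0.12 (SE, edgeR adjusted p = 0.0068) at 24 h and 0.44 ± 0.12 (SE, edgeR adjusted p = 0.0024) at 72 h, with NMD3 at -0.13 ± 0.049 (SE, edgeR adjusted p = 0.046) and BOP1 at -0.34 ± 0.047 (SE, edgeR adjusted p = 4.7e-07) the largest falls. Of 19 rows of the RNA polymerase I machinery, which transcribes ribosomal RNA, 9 were higher and 1 lower in proliferation, 1 and 1 at 24 h, and 2 and 6 at 72 h. The 9 are 47.4% of the list and the 6 are 31.6%. POLR1C was higher in proliferation by 0.54 ± 0.075 (SE, edgeR adjusted p = 4.4e-07) and RRN3 lower, at -0.19 ± 0.061 (SE, edgeR adjusted p = 0.008). At 24 h MAX, which is on this list but is not a subunit of the polymerase, was at 0.19 ± 0.063 (SE, edgeR adjusted p = 0.027). POLR1A was at -0.14 ± 0.049 (SE, edgeR adjusted p = 0.035). At 72 h POLR1F was at 0.57 ± 0.071 (SE, edgeR adjusted p = 9.6e-08) and POLR1D at -0.35 ± 0.063 (SE, edgeR adjusted p = 2.5e-05).

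Of 32 rows of translation initiation factors, 13 were higher and 14 lower in proliferation, 9 and 2 at 24 h, and 11 and 4 at 72 h, or 40.6% and 43.8%, 28.1% and 6.25%, and 34.4% and 12.5%. EIF6, which keeps large subunits from joining small ones, was higher in proliferation by 0.53 ± 0.060 (SE, edgeR adjusted p = 1.1e-08), and EIF4A2 was lower, at -0.55 ± 0.040 (SE, edgeR adjusted p = 3.9e-12). The helicase EIF4A1 rose at 24 h by 0.28 ± 0.050 (SE, edgeR adjusted p = 9.2e-05), where EIF2B4 fell, at -0.23 ± 0.061 (SE, edgeR adjusted p = 0.0054), and EIF5B rose at 72 h by 0.44 ± 0.050 (SE, edgeR adjusted p = 1.3e-08), where EIF4A2 fell, at -0.24 ± 0.040 (SE, edgeR adjusted p = 8.7e-06). Of 27 rows of mTORC1 and its TOP regulators, 9 were higher and 11 lower in proliferation, 6 and 4 at 24 h, and 5 and 7 at 72 h, or 33.3% and 40.7%, 22.2% and 14.8%, and 18.5% and 25.9%. EIF4EBP1, the translation repressor that mTORC1 switches off, was higher in proliferation by 0.69 ± 0.046 (SE, edgeR adjusted p = 8.2e-13), and SESN3 was lower, at -0.61 ± 0.17 (SE, edgeR adjusted p = 0.0031). RRAGD, a GTPase upstream of mTORC1, was lower, at -0.85 ± 0.13 (SE, edgeR adjusted p = 1.6e-05) at 24 h and -0.60 ± 0.11 (SE, edgeR adjusted p = 5.9e-05) at 72 h, with EIF4EBP2 higher by 0.39 ± 0.084 (SE, edgeR adjusted p = 0.00089) and RRAGA by 0.57 ± 0.16 (SE, edgeR adjusted p = 0.0042).

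Of 12 genes of the p53 and MDM2 axis, 2 were higher and 7 lower in proliferation, 1 and 6 at 24 h, and 4 and 5 at 72 h. The lower ones are 58.3%, 50% and 41.7% of the list. ZMAT3, a p53 target, was lower in proliferation, at -0.79 ± 0.094 (SE, edgeR adjusted p = 3.4e-08), and GADD45A was higher by 0.19 ± 0.081 (SE, edgeR adjusted p = 0.041). BBC3, another target, was lower, at -0.86 ± 0.11 (SE, edgeR adjusted p = 5.6e-07) at 24 h and -0.82 ± 0.11 (SE, edgeR adjusted p = 6.1e-07) at 72 h, while TP53INP1 was higher by 0.22 ± 0.051 (SE, edgeR adjusted p = 0.0015) and MDM4 by 0.35 ± 0.13 (SE, edgeR adjusted p = 0.022). Nuclear genes of oxidative phosphorylation, highly expressed and outside translation, had 36 of 78 rows higher and 10 lower in proliferation, 4 and 1 at 24 h, and 2 and 22 at 72 h. The 36 are 46.2% of the list, and the 22 are 28.2%, close to the share of all rows. From 24 h to 72 h the culture difference fell for 17 of these rows (21.8%, against 11.7% of all rows) and rose for 0. In the list of TOP genes it fell for 4 and rose for 5. NDUFS7 was higher by 0.63 ± 0.049 (SE, edgeR adjusted p = 1.2e-11) and ATP5MG lower, at -0.39 ± 0.11 (SE, edgeR adjusted p = 0.0029) in proliferation, NDUFB2 and SDHA were at 0.32 ± 0.084 (SE, edgeR adjusted p = 0.0055) and -0.11 ± 0.038 (SE, edgeR adjusted p = 0.028) at 24 h, and COX6B1 was at -0.64 ± 0.21 (SE, edgeR adjusted p = 0.014) at 72 h.

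The authors' deposited tables of coculture against monoculture were read at an adjusted p under 0.05. In proliferation 42 of the 87 members were higher and 23 lower. At 24 h these counts were 49 and 0, and at 72 h 5 and 10. The shares of all rows in those tables are not given here, so whether the counts are particular to the members cannot be told. The authors' deposited log2 fold changes had medians over the members of 0.10, 0.15 and -0.0024.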

How the data were processed

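The authors deposited gene counts as 1 table, whole numbers of reads per gene and library. Per the submitters' processing notes the tools were STAR, RSEM, FastQC and DESeq2, with no version or order, so the counts may be rounded estimates. In the sources used here the genome build is not given. For each time, a further deposited table gives, per the file headers, the authors' log2 fold change with its standard error, a test score, a mean signal and p-values. Only their log2 fold changes and adjusted p-values were read, for the sentences that name them. Of 36 count columns, 12 carry no labelled library name and were left out. Symbols and coordinates came from the deposited tables.

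Counts of all 24 labelled libraries were fitted with edgeR 4.0.16 in R 4.3.3, using TMM scaling, 1 mean per group (18 residual degrees of freedom) and the quasi-likelihood F test, with Benjamini-Hochberg adjustment over 11937 rows. The filterByExpr rule removed 0 rows. The SE was taken as the log2 fold change divided by the root of F. The procedure was tested on simulated data. Lists are described by counts and medians, with no test of the list. The 9 comparisons are coculture against monoculture at each time, the change of that difference between successive times, and successive times within each culture. Alternatives were DESeq2 1.42.0, other scalings and filters, a replicate block, a lane term, subsets of libraries and leaving out each library. Replicates of a group differed by more than counting noise (chi-square per degree of freedom of 2.16 to 144 over 36 pairs), so none was counted as a repeat.

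The members and lists were chosen with earlier results of these data known. Named members are the 4 largest called changes in each direction in each coculture against monoculture comparison, the 3 largest in the others, and RPLP0, RPLP1, RPLP2, RPSA, RPL5, RPL11, RPS27A, RPS27L, RPL22, RPL22L1, RPL3, RPL36A, RPL36AL, RPS4X, RPL7L1 and RPL26L1 whatever they did. In other lists the largest called rise and fall between cultures are named. Other rows that are named, such as the higher row of a symbol with 2, were chosen after their values were seen. Some genes that these rules name are not reported here, and the counts include them.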

Additional observations from a re-analysis of the deposited data

Results flagged for a closer look

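A few libraries stood far from the other 3 of their group. The share of counts on ribosomal protein rows was 5.13% in coculture replicate 2 in proliferation, the deepest library, where the other 3 had at most 4.72%. RPS23 had 554 CPM in monoculture replicate 4 at 72 h, above 415 to 434 CPM in the other 3. The RPS27L row on chromosome 3 had 25.3 CPM in monoculture replicate 3 at 24 h, below the other 3, and RPS28 had 244 CPM in monoculture replicate 4 in proliferation, below the other 3. Of 114 groups of 4 libraries looked at, 4 held such a library, and chance gives about 1 in 20.

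The culture difference itself changed between times. From proliferation to 24 h, 29 members moved up and 7 down, among them RPL22L1 at 0.73, RPL35A at 0.46, RPL22 at 0.44, RPS28 at -0.31 and RPL28 at -0.28 on the log2 scale, by a test of the change. RPL22L1 went from lower in coculture to higher. From 24 h to 72 h, 30 members moved down, with RPL35 on chromosome 21 at -1.04, RPS16 on chromosome 3 at -0.81 and RPL17 on chromosome 21 at -0.41. These 3 are second rows of their symbols whose level in coculture at 24 h was lower in both lane 7 libraries than in both lane 6 libraries.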

How the results depend on the processing

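Of 636 values that answer a comparison, each recomputed under 1 alternative, 594 kept their direction and their side of the threshold, or moved by less than their spread. Scaling by library sizes alone moved the most: 21 members higher in proliferation with a median of 0.039, 39 higher and 5 lower at 72 h with the median at 0.13 in place of below 0, 3 moving down from proliferation to 24 h with a median change of 0.10, 2 moving down from 24 h to 72 h with a median of -0.020, medians of -0.46 in monoculture and -0.38 in coculture from proliferation to 24 h, and, in monoculture from 24 h to 72 h, 9 higher, 21 lower and a median of -0.021, below 0 in place of above. It put RPL3 at 0.13 at 72 h, and moved the median of all rows to between -0.19 and 0.14. With lane in the model, 2 members were higher and 2 lower at 72 h, 15 moved down from 24 h to 72 h, and 3 were higher in coculture from 24 h to 72 h, while RPL35 on chromosome 21, RPS16 on chromosome 3 and RPL17 on chromosome 21 stood at 0.25, 0.25 and 0.12 at 72 h, and RPS19 on chromosome 9 and RPL35 on chromosome 21 at 0.044 and 0.23 from 24 h to 72 h in coculture. For the medians and rows whose sign turned, the cause was not tested. Lane 6 libraries alone left 17 members higher at 24 h, with fewer samples, and could not be used for coculture at 72 h. Fitting only the groups compared left 2 higher at 72 h and 17 moving down from 24 h to 72 h. Without the rRNA-rich libraries, 1 member was lower at 24 h and 5 at 72 h. For both of these settings the shares of all rows are not given here. Without the shallowest and the deepest library, an alternative chosen after seeing the data, 21 were higher in proliferation. Without nuclear rRNA and mitochondrial rows, the shares were 4.88% in monoculture in proliferation and 3.76% in coculture at 72 h.

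Leaving out 1 library at a time gave 25 to 64 members higher and 0 to 1 lower at 24 h, 2 to 14 higher and 6 to 13 lower at 72 h, 5 to 13 moving down from proliferation to 24 h and 14 to 39 from 24 h to 72 h, medians of -0.35 to -0.25 in monoculture from proliferation to 24 h, and 4 to 11 lower in monoculture from 24 h to 72 h. In proliferation it gave 27 to 41 members higher, the fewest without coculture replicate 2, the deepest library, and 15 to 23 lower. The shares of all rows are not given here, apart from those given above for single settings.

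Replicate numbers did not pair the libraries: 60 correlations of the deviations of same-numbered libraries ran from -0.14 to 0.12, and 1 was over 0.1. With the number as a block, 39 members were higher and 19 lower in proliferation, 46 and 0 at 24 h, and 7 and 10 at 72 h. The shares of all rows with the block are not given here.

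Mean counts of members started at 53.4, and depth limits the rows with the fewest counts. How reads were assigned between rows of 1 symbol cannot be checked from counts.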
